A study of Mus musculus with 6 samples.

Results

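The miR-26 family was followed in serum exosomes of 3 sham mice and 3 Acu/LFES mice. The family was taken as the rows named mmu-miR-26a-5p, mmu-miR-26b-5p and mmu-miR-26b-3p in the deposited count table, and all 3 were present among its 1982 rows. Of these rows 1915 carry the mouse prefix mmu, 63 the prefix rco, with 104 counts together, and 4 the prefix hiv1, with 0 counts. All animals were male C57BL/6 mice aged 3 months. Acu/LFES mice received acupuncture needles with low frequency electrical stimulation at hindlimb points for 30 min once, while the sham procedure used needles beside these points and no current. Each mouse gave its own library of small RNA from the exosomes of its blood, and the hour at which the serum was drawn is not given in the sources used here. Exosomes of blood come from many cell types, so their miRNAs are a mixture.

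miRNAs are short RNAs that guide Argonaute proteins to matching sites in mRNAs, and the seed, bases 2 to 8 from the 5′ end, leads the pairing. A hairpin precursor is cut into a 5p and a 3p arm, of which one is usually kept and the other mostly degraded. miR-26 hairpins lie in introns of the Ctdsp genes, which encode small phosphatases that act on the C-terminal domain of RNA polymerase II and help to silence neuronal genes outside neurons. In muscle cells miR-26a is known to repress Ezh2, a histone methyltransferase that holds back differentiation.

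The mature sequences are shown because the 5p members differ so little that their reads could be shared, while the 3p arms tell the 3 genes apart. They are RefSeq entries on GRCm38.p6, written 5′ to 3′ with the seed in capitals.
miR-26a-5p: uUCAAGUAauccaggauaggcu
miR-26b-5p: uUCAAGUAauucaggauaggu
miR-26b-3p: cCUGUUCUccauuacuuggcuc
miR-26a-1-3p: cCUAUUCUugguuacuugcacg
miR-26a-2-3p: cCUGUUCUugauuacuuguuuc
Among 1679 mature mouse miRNAs in the RefSeq table, the seed UCAAGUA was held by miR-26a-5p and miR-26b-5p and by no other entry. The 5p members matched at 19 of 21 aligned positions. Counted from 1 at the 5′ end, the changes from miR-26a-5p to miR-26b-5p were C11U and C21U, and miR-26a-5p is 22 bases long against 21. The number of mismatches that the counting allowed is not given in the sources used here, so the division of reads between both 5p members is uncertain. miR-26b-3p shared its seed with miR-26a-2-3p, and the 2 other entries with that seed had 0 counts in all libraries.

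The gene of miR-26b, Mir26b, lies on the plus strand at chr1:74394310-74394394 in intron 4 of Ctdsp1, and its hairpin starts 234 bases after the first base of an intron of 564 bases. miR-26a-5p is made by a pair of genes. Mir26a-1 lies at chr9:119031796-119031885 on the plus strand in intron 5 of Ctdspl (transcript Ctdspl-201), which is 3283 bases long. Mir26a-2 lies at chr10:126995530-126995613 on the plus strand in intron 5 of Ctdsp2, which is 1946 bases long. All 3 hairpins were in the sense direction of their host gene in the GENCODE M21 annotation of GRCm38, the build of these positions. Counts of miR-26a-5p could not be assigned to either gene, since both give the same mature sequence.

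**Figure D1:**
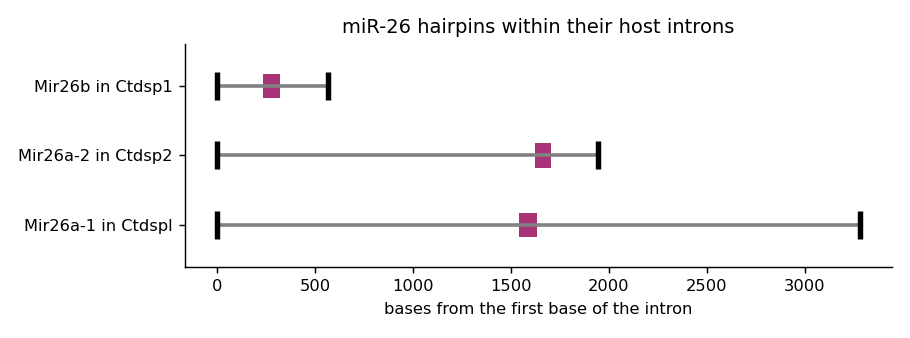
Position of the miR-26 hairpins in their host introns, in bases from the first base of the intron; grey lines are introns, black ticks their ends and purple boxes the hairpins. Mir26b sits in the shortest intron, 564 bases long, and Mir26a-1 in the longest, 3283 bases long.

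The libraries held between 391708 and 1504137 counts, with the most in Acu/LFES mouse 4. CPM below are counts scaled to a common library size, each library total being multiplied by its TMM factor, which rests on the miRNAs that differ least between libraries. These factors lay between 0.65 and 1.11 in 5 libraries and reached 2.12 in Acu/LFES mouse 6, in which the red-cell miRNAs miR-486a-5p and miR-486b-5p took 29.2% of the counts against 61.7% to 74.0% in the others. Both rows hold identical counts in every mouse, so the same reads may have been counted in both, and with the pair counted once the share was 17.1% in mouse 6 and 44.6% to 58.7% in the others, a calculation added after seeing the data. All pairs of libraries differed by more than counting error. miRNAs known from red cells, white cells, liver and muscle were found in all libraries. Nothing in the labels says more of the source of the vesicles, and less miRNA in each vesicle cannot be told apart from fewer vesicles of one kind. Reads are not independent molecules, so intervals given for single mice cover counting error only.

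With TMM factors miR-26a-5p varied little across the mice, though not as CPM of the total count. miR-26b-5p was the more abundant member and varied among the Acu/LFES mice, and miR-26b-3p was rare. None of the 3 members passed the comparison of sham with Acu/LFES mice by edgeR's quasi-likelihood test after Benjamini-Hochberg adjustment over the 259 miRNAs tested. All 3 passed the filter on low counts. In that test 0 miRNAs had an adjusted p under 0.05 (0% in each direction), while before adjustment 5.79% passed that threshold as higher with Acu/LFES and 3.09% as lower. None of the members was among these. DESeq2, a tool named in the submitters' processing notes, called 1.16% higher and 1.93% lower after adjustment and 6.56% and 4.63% before it, again without a miR-26 member.

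Mice given Acu/LFES are called treated animals below. miR-26a-5p had 1102, 785 and 489 counts in sham mice 1, 2 and 3, and 2654, 700 and 1486 in Acu/LFES mice 4, 5 and 6. Its normalized count was 1589, 1831 and 1616 CPM among the sham animals and 1588, 1455 and 1356 CPM among the treated ones. Every Acu/LFES mouse thus stood below every sham mouse, but the highest Acu/LFES mouse and the lowest sham mouse were nearly equal. The exact 95% Poisson interval was 1529 to 1650 CPM in Acu/LFES mouse 4 and 1496 to 1685 CPM in sham mouse 1, so their order is within counting error. Of all miRNAs tested, 8.11% had Acu/LFES mice below sham mice without overlap. The group values were 1679 ± 133 CPM for sham and 1467 ± 117 CPM for Acu/LFES (mean ± SD, n = 3 per group; exact permutation test, two-sided, p = 0.1, the smallest that 3 mice against 3 allow). The log2 fold change of miR-26a-5p with Acu/LFES was -0.19 (standard error 0.21, 95% interval -0.66 to 0.27, adjusted p = 0.799 in edgeR's quasi-likelihood test). Without TMM factors, as CPM of the total count, miR-26a-5p was 1763, 1192 and 1248 among the sham animals and 1764, 1109 and 2872 among the treated ones, and the groups overlapped. The highest treated animal was then 2.59 times the lowest, against 1.17 times with TMM factors. On that scale its log2 fold change was 0.45, where the median of all miRNAs tested was 0.71. It thus stood 0.26 below that median, and 0.24 below it with TMM factors. A change of scaling moves all miRNAs by nearly the same amount, so this likeness is no separate observation.

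miR-26b-5p had 2239, 1894 and 1210 counts among the sham animals and 7045, 967 and 2494 among the treated ones. Its normalized count was 3228, 4418 and 3998 CPM in sham mice 1, 2 and 3, and 4216, 2011 and 2276 CPM in Acu/LFES mice 4, 5 and 6. Acu/LFES mouse 4 lay among the sham mice, while mice 5 and 6 lay below all of them. The group values were 3881 ± 604 CPM for sham and 2834 ± 1204 CPM for Acu/LFES (mean ± SD, n = 3 per group; exact permutation test, two-sided, p = 0.3). The log2 fold change of miR-26b-5p was -0.45 (standard error 0.30, 95% interval -1.13 to 0.23, adjusted p = 0.761 in edgeR's quasi-likelihood test). The interval holds 0 and also falls far larger than the estimate, so the direction could not be settled with 3 mice in a group. Without mouse 4, which lay among the sham mice, the log2 fold change was -0.85 (unadjusted p = 0.00577, adjusted p = 0.406 in the same edgeR test). Without mouse 5 it was -0.21 and without mouse 6 it was -0.27. Leaving out any mouse other than mouse 4 gave an unadjusted p of 0.193 to 0.506 in that test. In the fit without mouse 4, 16 of the 307 miRNAs tested passed an unadjusted p under 0.05 as higher and 9 as lower.

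Between TMM factors and total counts, the low value of miR-26b-5p in mouse 6 depended on the scaling, and that in mouse 5 did not. As CPM of the total count, miR-26b-5p was 3583, 2875 and 3089 among the sham animals and 4684, 1532 and 4820 among the treated ones, so mouse 5 remained the lowest and mouse 6 became the highest. Its log2 fold change on that scale was 0.21, which is 0.50 below the median of all miRNAs, the same distance as with TMM factors. A change of scaling moves all miRNAs by nearly the same amount, so this match is no separate observation. miR-486a-5p and miR-486b-5p took 73.5% of the counts in mouse 5 (58.1% with the pair counted once), close to the highest share, and the lowest share in mouse 6. Their part in the difference was not tested.

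Since reads could be shared between them, both 5p members were also added. Their sum was 4816, 6249 and 5614 CPM among the sham animals and 5805, 3466 and 3632 CPM among the treated ones, so mice 5 and 6 were again below all sham mice and mouse 4 lay among them. The mean of the sum was 5560 ± 718 CPM for sham and 4301 ± 1305 CPM for Acu/LFES (mean ± SD, n = 3 per group; exact permutation test, two-sided, p = 0.3). Most of the sum was miR-26b-5p, so it is no separate observation. As a share of the total count, all miR-26 rows together were highest in mouse 6, at 0.776%, so its low sum depended on the scaling.

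**Figure D2:**
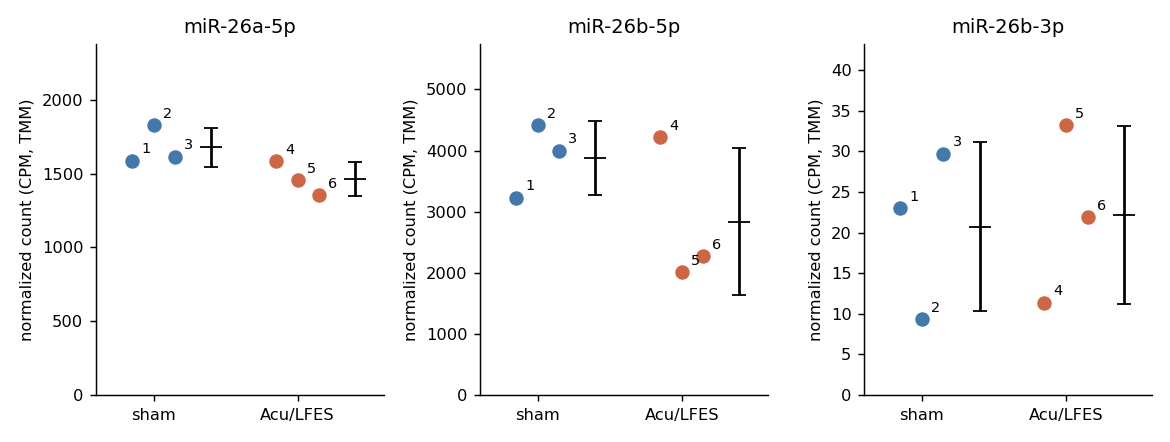
Normalized counts (CPM with TMM factors) of the 3 miR-26 members, 1 point for each mouse with its number; black bars are the mean ± SD of 3 mice. miR-26a-5p stays between 1356 and 1831 CPM, while miR-26b-5p is at 4216 CPM in mouse 4 and at 2011 and 2276 CPM in mice 5 and 6.

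miR-26b-3p, the passenger arm of the Ctdsp1 hairpin, had 16, 4 and 9 counts among the sham animals and 19, 16 and 24 among the treated ones. Its normalized count was 23.1, 9.33 and 29.7 CPM among the sham animals and 11.4, 33.3 and 21.9 CPM among the treated ones. The groups overlapped over nearly their whole range. The log2 fold change of miR-26b-3p was 0.08 (standard error 0.88, 95% interval -1.89 to 2.06, adjusted p = 0.983 in edgeR's quasi-likelihood test), so neither a rise nor a fall of a few-fold could be seen at this depth. Without sham mouse 2 it was -0.28, and without Acu/LFES mouse 5 it was -0.29.

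The 3p arms of the miR-26a hairpins were at the edge of detection and could not be tested. miR-26a-1-3p, from the Ctdspl intron, had 12 counts in Acu/LFES mouse 6 and 0 in the other 5 mice. miR-26a-2-3p, from the Ctdsp2 intron, had 6 counts in sham mouse 1, 22 in Acu/LFES mouse 4 and 0 in the other 4 mice. No mouse had counts of both arms. With 3 counts taken as the limit that a count of 0 allows, a level of up to 9.91 CPM could be missed in sham mouse 3, the shallowest scaled library, and up to 1.80 CPM in Acu/LFES mouse 4, the deepest. The upper ends of the exact 95% Poisson interval of a count of 0, the interval used for the members above, were 12.2 and 2.21 CPM in these mice.

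Both 5p members were among the most abundant miRNAs, and miR-26b-3p was not. By mean CPM over the 6 mice, miR-26b-5p ranked 29 of the 954 rows with a count, miR-26a-5p ranked 45 and miR-26b-3p ranked 231. miR-26b-5p (3358 ± 1027 CPM, SD over the 6 mice) stood between miR-140-3p (3396 ± 699 CPM) and miR-486b-3p (3007 ± 814 CPM), and neither neighbour differed from it beyond this spread. miR-26a-5p (1573 ± 161 CPM) stood between miR-205-5p (1729 ± 912 CPM) and miR-30e-5p (1527 ± 396 CPM), again within the spread. All miR-26 rows together took 0.538%, 0.407% and 0.436% of the counts among the sham animals and 0.648%, 0.267% and 0.776% among the treated ones, a wider range for Acu/LFES on both sides. The 95% Wilson intervals were 0.520% to 0.557%, 0.392% to 0.423% and 0.416% to 0.457% among the sham animals, and 0.635% to 0.660%, 0.254% to 0.280% and 0.753% to 0.800% among the treated ones.

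**Figure D3:**
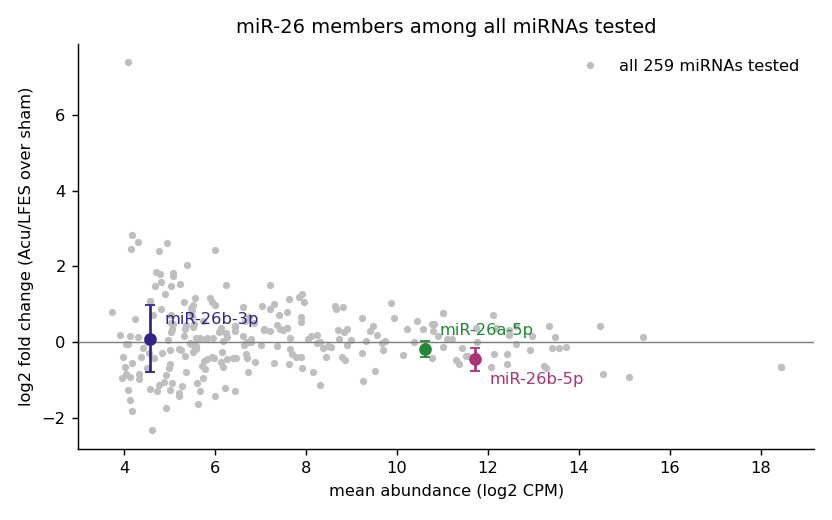
Log2 fold change with Acu/LFES (edgeR) against mean abundance in log2 CPM for the 259 miRNAs tested, as grey points, with the miR-26 members in colour and bars of 1 standard error. Both 5p members lie among the abundant miRNAs slightly below 0, at -0.19 and -0.45, and miR-26b-3p lies among the rare ones at 0.08 with a standard error of 0.88.

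The balance between both 5p members needs no scaling, since both were counted in the same library. miR-26a-5p made up 33.0%, 29.3% and 28.8% of their sum in sham mice 1, 2 and 3, with 95% Wilson intervals of 31.4% to 34.6%, 27.6% to 31.1% and 26.7% to 31.0%. In Acu/LFES mice 4, 5 and 6 it made up 27.4%, 42.0% and 37.3%, with intervals of 26.5% to 28.3%, 39.6% to 44.4% and 35.8% to 38.9%. miR-26b-5p was therefore the more counted member in all 6 mice. Mice 5 and 6 stood above every sham mouse beyond counting error. Mouse 4 was the lowest of all, though its interval overlapped those of sham mice 2 and 3. The log2 ratio of miR-26a-5p to miR-26b-5p was -1.20 ± 0.15 for sham and -0.87 ± 0.48 for Acu/LFES (mean ± SD, n = 3 per group), a difference of 0.33 that was smaller than the spread of the Acu/LFES mice (exact permutation test, two-sided, p = 0.4, adjusted p = 0.714 over the 10 ratios compared). Without mouse 4 the difference was 0.59, and without mouse 5 it was 0.12.

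The balance between the arms of Mir26b was less well measured. miR-26b-3p made up 0.710%, 0.211% and 0.738% of the counts of both arms among the sham animals, and 0.269%, 1.63% and 0.953% among the treated ones. The 95% Wilson interval was 0.0820% to 0.541% in sham mouse 2 and 1.00% to 2.63% in Acu/LFES mouse 5, the ends of the range. The 5p arm took all but a few percent of the counts in every mouse. The log2 ratio of miR-26b-5p to miR-26b-3p was 7.70 ± 1.03 for sham and 7.05 ± 1.34 for Acu/LFES (mean ± SD, n = 3 per group; exact permutation test, two-sided, p = 0.5, adjusted p = 0.714). Mice 2 and 4 had the lowest share of the 3p arm, and they belong to different groups.

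**Figure D4:**
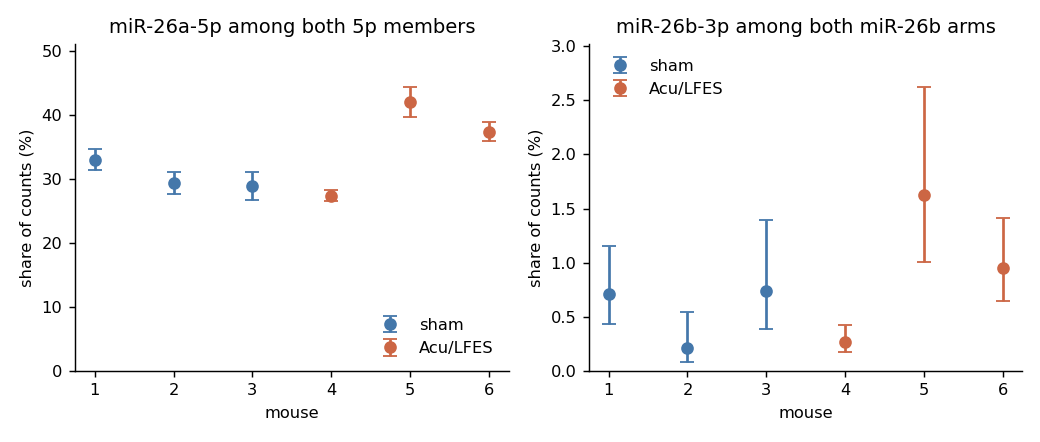
Share of miR-26a-5p among the counts of both 5p members (left) and of miR-26b-3p among both miR-26b arms (right), in percent for each mouse, with 95% Wilson intervals. Mice 5 and 6 reach 42.0% and 37.3% of miR-26a-5p, and mouse 4, at 27.4%, is below the sham mice.

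The members were also set against reference miRNAs of the same library. miR-103-3p is an intronic miRNA of the Pank genes and was the reference of the study's serum qPCR. The log2 ratio of miR-26a-5p to miR-103-3p was 1.13, 0.42 and 1.58 among the sham animals and 0.62, 1.25 and 1.07 among the treated ones, and the groups overlapped (difference -0.06, exact permutation test, two-sided, p = 0.9, adjusted p = 0.9). Against the geometric mean of the 150 miRNAs outside the family with 10 counts or more in all libraries, the log2 ratio of miR-26a-5p was 1.79, 1.84 and 1.72 among the sham animals and 1.67, 1.51 and 1.51 among the treated ones. These groups did not overlap (difference -0.22, exact permutation test, two-sided, p = 0.1, adjusted p = 0.5). The share of all miRNAs without overlap against this reference was not computed. With TMM factors 8.11% of the miRNAs tested had Acu/LFES mice below sham mice without overlap. Against miR-16-5p the difference was -0.31 and against miR-191-5p it was 0.14, with overlap in both (p = 0.4 and p = 0.7, two-sided exact permutation tests).

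The same references were used for miR-26b-5p, a choice made after seeing the data. Its log2 ratio to miR-16-5p, a miRNA abundant in red cells, was -1.16, -0.88 and -0.92 among the sham animals and -1.36, -1.67 and -1.85 among the treated ones, without overlap (difference -0.64, exact permutation test, two-sided, p = 0.1, adjusted p = 0.5). The share of all miRNAs without overlap against miR-16-5p was not computed. In the edgeR fit miR-16-5p itself had a log2 fold change of 0.15 (standard error 0.25). With TMM factors miR-16-5p was 7204, 8113 and 7567 CPM among the sham animals and 10793, 6398 and 8193 CPM among the treated ones. It was thus highest in mouse 4, where the CPM of miR-26b-5p lay among the sham mice, so the lack of overlap in mouse 4 depended on this reference. The differences were -0.39 against miR-103-3p, -0.19 against miR-191-5p and -0.55 against the geometric mean, and the groups overlapped in each. The log2 ratio of miR-26b-5p was thus lower on average for Acu/LFES against all 4 references, by amounts that depended on the reference. None of the 10 ratios had an adjusted p under 0.05, which 3 mice against 3 could not reach.

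**Figure D5:**
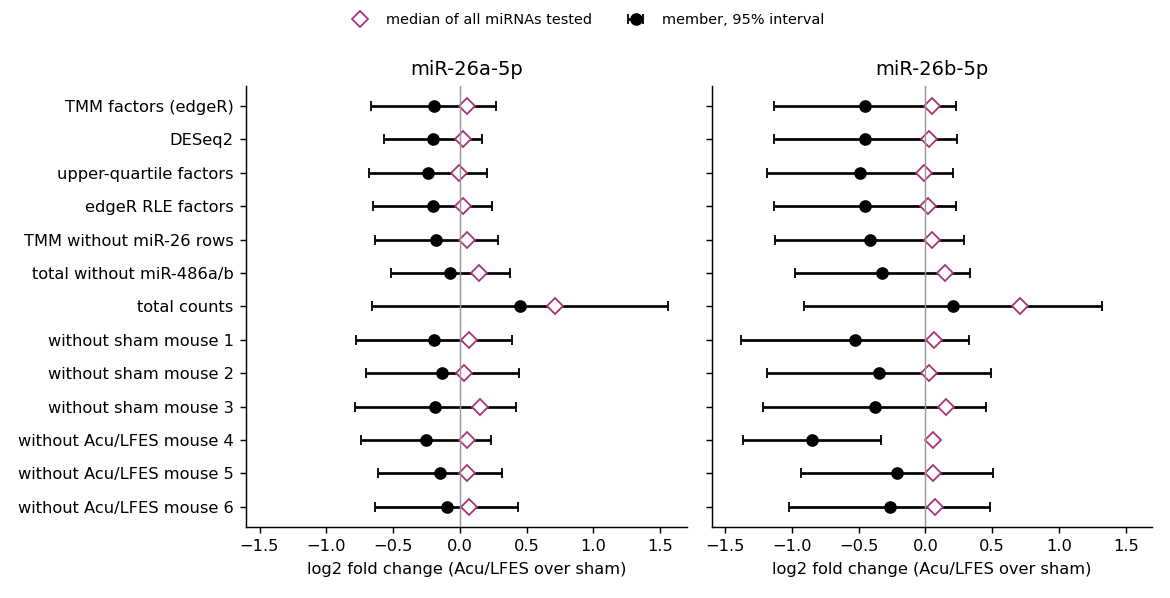
Log2 fold change of miR-26a-5p and miR-26b-5p with Acu/LFES under other scalings and with each mouse left out; points are the estimates, bars their 95% intervals and diamonds the median of all miRNAs tested. Both members turn positive with total counts, at 0.45 and 0.21, where the median of all miRNAs is 0.71.

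The spread within a group is given as a description, without a test, and holds for TMM factors only. On the log2 CPM scale the SD of miR-26a-5p was 0.11 for sham and 0.11 for Acu/LFES, and of the 259 miRNAs tested 8.88% and 3.86% had a smaller SD. The SD of miR-26b-5p was 0.23 for sham and 0.57 for Acu/LFES, with 17.0% and 53.7% of miRNAs below it, and the median SD of all miRNAs was 0.67 and 0.53. miR-26b-3p had 0.85 and 0.76, and it carries the largest counting error of the members.

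The miRNAs with the profile most like a member were found from log2 CPM centred over the 6 mice, by the root-mean-square difference from the member. For miR-26a-5p they were miR-30d-5p (0.11 log2), miR-98-5p (0.11), let-7d-5p (0.14) and miR-192-5p (0.15), against a median of 0.70 over all miRNAs. For miR-26b-5p they were let-7f-5p (0.23 log2), miR-126a-5p (0.24), let-7g-5p (0.26) and miR-425-5p (0.27), against a median of 0.83. miR-126a is known from endothelial cells, and miR-192 from liver and gut. let-7f-5p, which lay closest to miR-26b-5p, was 6091, 8099 and 5419 CPM among the sham animals and 5339, 3811 and 3865 CPM among the treated ones. Mice 5 and 6 were its lowest too, which its choice by likeness over the same mice made likely, so this is no separate observation. The difference between the 5p members themselves was 0.34 log2, which placed miR-26b-5p at rank 40 of 258 for miR-26a-5p, and miR-26a-5p at rank 8 for miR-26b-5p.

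A list of 39 further miRNAs known from introns of protein-coding genes was read beside the family. The reference used for positions held 35 of them, and for 31 the GENCODE M21 annotation placed the hairpin in such an intron on the same strand. The rest stayed in the list and in the values below. Of the 33 with enough counts, edgeR's quasi-likelihood test gave 0 an adjusted p under 0.05, and before adjustment 1 passed as higher and 1 as lower. Both were arms of miR-423, in an intron of Nsrp1, and were singled out after their values were seen. miR-423-5p had a log2 fold change of -0.66 (standard error 0.25) and miR-423-3p of 0.87 (standard error 0.35), with adjusted p of 0.503 and 0.518. The median log2 fold change of the tested list was 0.003, beside 0.05 over all miRNAs tested, and 16 of the 33 were below 0, beside 47.1% of all. The most counted miRNAs of the list were miR-25-3p and miR-93-5p from the Mcm7 intron, with log2 fold changes of 0.12 and 0.18.

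Marker miRNAs of the cell types that feed the blood were read for the whole of each list. Of the red-cell list 4 of 5 were tested, of the white-cell and platelet list 5 of 5, of the liver list 3 of 3 and of the muscle list 3 of 5, and 0 passed the threshold of 0.05 before or after adjustment by the same edgeR test. The summed level of the white-cell and platelet list, led by miR-142a-5p and miR-223-3p, was 6891, 7829 and 6411 CPM among the sham animals and 7053, 6119 and 5063 CPM among the treated ones. In this sum with TMM factors, as with miR-26b-5p, mouse 4 lay among the sham mice and mice 5 and 6 lay below all of them. As a share of all counts the list took 0.495% to 0.765% for sham and 0.466% to 1.07% for Acu/LFES. The Acu/LFES range was then wider on both sides, so the pattern of the sum depended on the scaling. No single member of the list had both mice below all sham mice. miR-223-3p was 1391 CPM in sham mouse 3 against 2102 and 2520 CPM in mice 5 and 6. miR-142a-5p was 2755 CPM in sham mouse 1 against 3402 CPM in mouse 5 and 1862 CPM in mouse 6. The liver list, led by miR-122-5p and miR-192-5p, was 10285 to 23630 CPM for sham and 4063 to 17948 CPM for Acu/LFES. The muscle list, led by miR-133a-3p and miR-1a-3p, was 10094 to 11262 CPM for sham and 7483 to 12434 CPM for Acu/LFES, and miR-208b-3p had 0 counts in all libraries. The red-cell list, led by miR-486a-5p and miR-486b-5p, took 62.6% to 74.6% of the counts for sham and 31.1% to 74.1% for Acu/LFES (45.9% to 59.7% and 19.3% to 59.0% with that pair counted once). The muscle level was lowest in mouse 5 and highest in mouse 6. The liver level was lowest in mouse 4, at 4063 CPM, while mouse 5 had 8914 CPM and mouse 6 had 17948 CPM. The part of these cell types in the spread of miR-26b-5p was not tested.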

How the data were processed

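The sample labels name 3 mice as Control and 3 as ACU-LFES. The Control mice are called sham here, as the study calls the mice whose exosomes were sequenced beside the treated ones. Values were deposited as raw counts of reads on each mature miRNA, with a column for every mouse. The submitters' processing notes name bcl2fastq 1, cutadapt 1.6 and DESeq2 1.26.0; the aligner, counter, miRNA annotation and mismatches allowed are not given in the sources used here, and they decide how reads were divided between miR-26a-5p and miR-26b-5p. Library totals ran from 391708 to 1504137 counts.

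edgeR 4.0.16 in R 4.3.3 filtered all miRNAs with its defaults, computed TMM factors and ran the quasi-likelihood test with Benjamini-Hochberg adjustment at 0.05. Standard errors came from the F statistic. For ratios within a library, exact permutation tests (two-sided) were run in scipy 1.17.1. Profiles and SDs used log2 of CPM plus 0.5. Alternatives were DESeq2 1.42.0, other scalings, other filters, collapsed identical rows, other references and each mouse left out. The procedure was tested on simulated data. Nothing says whether mice shared a cage or day, so p-values measure the spread between these samples.

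The members and lists were chosen with earlier results of these data known. miRNAs named are the members, the other arms of their hairpins, the references, the first 2 of each list by counts, the neighbours in rank and the 4 nearest profiles. Sequences are from RefSeq on GRCm38.p6, and host introns from GENCODE M21 on GRCm38. The plots used matplotlib 3.10.9.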

Additional observations from a re-analysis of the deposited data

How the results depend on the processing

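No miR-26 member passed an adjusted p under 0.05 under any alternative run. miR-26a-5p kept its direction under 14 of 15 alternatives and miR-26b-5p under 14 of 15, and both turned with total counts, to 0.45 and 0.21. Their log2 fold changes went from -0.25 to -0.10 and from -0.85 to -0.21 with each mouse left out. Apart from these fits, adjusted p went from 0.687 to 0.945 and from 0.515 to 0.884. miR-26b-3p turned to -0.0090 with upper-quartile factors and went from -0.29 to 0.42 with each mouse left out, it could not be tested at 10 counts in every library, and DESeq2 gave it no adjusted p. DESeq2 called 8 miRNAs where edgeR's quasi-likelihood test called 0 (23 at an unadjusted p under 0.05), and the number was 0 in every edgeR fit that left out a mouse, which was not run with DESeq2. The cause was not tested. With no filter the median of all miRNAs was 0.68, so miR-26a-5p and miR-26b-5p stood 0.83 and 1.07 below it. That median covers all 954 rows with a count, with those too rare for the default filter among them. With that filter the distances were 0.24 and 0.50, and the larger ones came from a higher median. The difference in the log2 ratio of miR-26a-5p to miR-103-3p turned to 0.14 with miR-191-5p and went from -0.38 to 0.21 with each mouse left out. That of miR-26a-5p to miR-26b-5p went from 0.12 to 0.59, that of miR-26b-5p to miR-26b-3p from -1.39 to -0.05 and that of miR-26b-5p to miR-103-3p from -0.67 to -0.07. No paired analysis was possible because the mouse numbers are not shared between groups.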
